A study of Mus musculus with 2 samples.

Results

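The summits described here are those of the zinc finger protein YY1 that lay within 1 kb of an end of 2 or more different protein-coding genes, called paired-gene summits below. A gene end is either outer boundary of a gene, so it can be where transcription starts or where the transcript stops. The rule took 303 of the 1424 listed summits: 42 of 165 in the library labelled room temperature (25.5%, exact 95% interval 19.0 to 32.8) and 261 of 1259 in the cold library (20.7%, 18.5 to 23.1). Mature adipocytes came from the inguinal fat (iWAT) of male wild-type C57 mice aged 8 to 10 weeks, either kept at room temperature or exposed to cold stress for 7 days. Each condition had 1 library, and the number of animals in it is not stated. The label says ChIP-seq and the protocol describes CUT&Tag, in which a transposase tied to the antibody cuts beside the bound protein. None of the 6 adipocyte marker genes looked for (among them Adipoq and Pparg), and none of the 12 markers of macrophages, endothelium and preadipocytes, was an end of a paired-gene summit. A peak does not measure expression, so these genes do not check the cell type, and fewer cells of a type cannot be told apart from less binding per cell. Peak names contain the number 30 in the list labelled room temperature and the number 4 in the cold list, with no meaning stated, and the groups follow the labels.

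Neighbouring genes transcribed away from each other often start close together, and the stretch between or around both starts then serves as a bidirectional promoter. Such promoters tend to be rich in CpG and are common among housekeeping genes, for example of mitochondria and RNA processing. YY1 binds DNA through a core with the letters GCCAT, often in the longer form AANATGGC (GCCATNTT on the opposite strand), which is known to sit close to transcription starts. The Surf1 and Surf2 genes, the former needed to assemble cytochrome oxidase, share one of the best-studied promoters of this kind, and YY1 is a known regulator of it.

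The following 7 promoter windows are shown because each belongs to a pair of opposite-strand starts and holds both a cold summit and a match to AANATGGC, printed in capitals on whichever strand it falls. They are RefSeq sequences of GRCm38.p6, the build known as mm10, and run from 250 bases before the annotated start to 50 after it. Each is written 5′ to 3′ on the strand of its gene, and the start is base 251. The partners are Ndufb5, Mkks, Hdlbp, Slc39a7, Ccdc151, B3galt6 and Surf1 in this order.
Mrpl47 window, chr3:32736706-32737005, minus strand: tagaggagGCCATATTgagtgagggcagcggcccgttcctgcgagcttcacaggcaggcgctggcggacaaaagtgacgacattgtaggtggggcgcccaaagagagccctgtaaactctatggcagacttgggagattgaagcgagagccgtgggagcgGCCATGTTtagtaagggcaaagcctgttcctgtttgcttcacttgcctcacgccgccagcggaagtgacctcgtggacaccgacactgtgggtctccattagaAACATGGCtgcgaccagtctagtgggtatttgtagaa
Slx4ip window, chr2:136891918-136892217, plus strand: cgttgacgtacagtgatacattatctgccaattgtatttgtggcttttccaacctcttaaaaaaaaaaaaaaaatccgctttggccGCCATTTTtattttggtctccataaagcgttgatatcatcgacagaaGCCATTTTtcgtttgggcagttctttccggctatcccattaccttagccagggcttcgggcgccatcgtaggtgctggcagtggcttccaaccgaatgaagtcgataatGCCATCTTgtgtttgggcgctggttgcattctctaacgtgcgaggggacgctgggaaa
Septin2 window, chr1:93478743-93479042, plus strand: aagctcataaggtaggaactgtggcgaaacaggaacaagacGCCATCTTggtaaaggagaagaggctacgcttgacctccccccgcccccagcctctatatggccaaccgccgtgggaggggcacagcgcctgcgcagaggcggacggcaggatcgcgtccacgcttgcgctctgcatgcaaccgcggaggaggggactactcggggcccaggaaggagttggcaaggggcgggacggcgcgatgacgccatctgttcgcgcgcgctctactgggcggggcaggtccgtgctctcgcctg
Rxrb window, chr17:34031562-34031861, plus strand: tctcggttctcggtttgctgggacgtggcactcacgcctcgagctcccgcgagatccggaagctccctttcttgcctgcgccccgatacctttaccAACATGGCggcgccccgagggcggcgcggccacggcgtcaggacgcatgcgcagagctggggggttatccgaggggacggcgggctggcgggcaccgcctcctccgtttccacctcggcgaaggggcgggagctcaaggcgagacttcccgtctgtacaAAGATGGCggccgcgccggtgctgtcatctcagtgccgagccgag
Prkcsh window, chr9:22002738-22003037, plus strand: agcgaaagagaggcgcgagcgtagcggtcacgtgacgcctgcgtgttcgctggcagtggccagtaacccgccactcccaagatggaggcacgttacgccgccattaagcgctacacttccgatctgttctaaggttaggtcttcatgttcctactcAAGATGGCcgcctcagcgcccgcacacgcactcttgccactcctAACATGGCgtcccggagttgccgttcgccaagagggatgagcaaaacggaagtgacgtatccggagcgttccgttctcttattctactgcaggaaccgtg
Sdf4 window, chr4:155993087-155993386, plus strand: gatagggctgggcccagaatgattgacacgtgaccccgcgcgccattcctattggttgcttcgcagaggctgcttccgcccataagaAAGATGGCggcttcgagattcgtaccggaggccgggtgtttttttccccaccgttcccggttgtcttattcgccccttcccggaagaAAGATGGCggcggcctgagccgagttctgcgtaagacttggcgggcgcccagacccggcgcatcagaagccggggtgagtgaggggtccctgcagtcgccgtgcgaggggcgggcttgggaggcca
Surf2 window, chr2:26916158-26916457, plus strand: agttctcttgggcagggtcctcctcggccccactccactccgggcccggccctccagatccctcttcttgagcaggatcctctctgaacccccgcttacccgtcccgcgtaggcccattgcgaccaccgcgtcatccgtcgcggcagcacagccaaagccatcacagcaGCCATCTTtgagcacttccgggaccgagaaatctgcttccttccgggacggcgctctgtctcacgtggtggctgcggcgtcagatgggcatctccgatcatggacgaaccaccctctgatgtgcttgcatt

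The windows come from 74 cold summits on opposite-strand starts that lay in a window of their pair with a match, so summit and match had to be near each other. In the Mrpl47 window, which reaches back towards Ndufb5, 3 matches lay on both sides of the cold summit at base 85, and the nearest was 72 bp away. The Slx4ip window held 3 matches, and the nearest was 4 bp from the summit at base 141. The Septin2 window held 1 match, 17 bp from the summit at base 28. In the Rxrb and Prkcsh windows the nearest of 2 matches lay 28 and 8 bp from the summit. In the Sdf4 window the nearest of 2 matches was 39 bp away, and the single Surf2 match was 40 bp away. For Slx4ip and Sdf4 the annotated start of the window lies 955 and 494 bp inside the outer gene end used by the rule, so these windows belong to an inner start.

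The strongest paired-gene summit after cold lay beside Tpgs1, a subunit gene of a tubulin-modifying complex, with 135 fragments, against 31 in the room temperature library. At room temperature Crat, the carnitine acetyltransferase gene, with Ptpa had a higher pileup (33 fragments) but a lower deposited −log10 q, 28.2 against 30.3 for Tpgs1. The other gene in reach of the Tpgs1 summit was Madcam1, an adhesion molecule of vessel walls, whose transcript end was 826 bp from the cold summit. After cold, the pair with the strongest summit among opposite-strand starts was Mrpl47, a mitochondrial ribosomal protein gene, with Ndufb5, a complex I subunit gene. Its pileup, the number of fragments over the summit, was 20 at room temperature (exact 95% Poisson interval 12.2 to 30.9) and 84 after cold (67.0 to 104). Lrrc41 with Uqcrh, a complex III subunit gene, had 20 fragments (12.2 to 30.9) and 79 (62.5 to 98.5). Mkks with Slx4ip had 20 (12.2 to 30.9) and 67 (51.9 to 85.1). At each of these sites the cold value was the higher one and the intervals of the libraries did not overlap. All intervals cover counting error only, since 1 library per condition gives no replicate spread, and for that reason no p-value is given anywhere for cold against room temperature.

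The ends met by a summit were mostly the starts of genes on opposite strands. The strand of both genes was known for 202 of the 261 cold summits, and 171 of these (84.7%, 78.9 to 89.3) joined 2 opposite-strand starts. At room temperature 25 of 33 did (75.8%, 57.7 to 88.9). A start beside the transcript end of the neighbour accounted for 26 cold and 6 room temperature summits. In this group the summit lay nearer the start in 25 of 26 and in 6 of 6, at a median of 109 bp from the start and 645.5 bp from the transcript end after cold. Tpgs1 with Madcam1 belongs here, as does Usf1, a helix-loop-helix transcription factor gene, with Arhgap30. Only 2 cold summits joined 2 transcript ends, both weak: Fmnl3 with Prpf40b (9 fragments) and the histone genes H2ac21 with H2ac20 (6). Starts of the same strand were joined 3 times after cold, at Zc3h11a with Zbed6, Cpne1 with Rbm12 and Cmc4 with Mtcp1, where 1 annotated gene lies inside the other.

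Where both strands are known, the annotation holds opposite-strand starts, a start beside a transcript end and joined transcript ends in similar numbers. Among the 21887 nuclear protein-coding genes there were 4810 pairs with ends at most 2 kb apart, the pairs that a summit could reach together. A cold summit reached both genes in 262 of them (5.45% over all pairs) and a room temperature summit in 41 (0.852%). Of the 1005 pairs of opposite-strand starts, 167 had a cold summit (16.6%, 14.4 to 19.1) and 25 one at room temperature (2.49%, 1.62 to 3.65). Of the 975 pairs of a start with a transcript end, 27 did after cold (2.77%, 1.83 to 4.0) and 6 at room temperature (0.615%, 0.226 to 1.33). Of the 1106 pairs of transcript ends 3 did after cold (0.271%, 0.056 to 0.791) and 0 at room temperature (0 to 0.333). In 1681 further pairs the strand of at least 1 gene was unknown. Of these, 61 had a cold summit (3.63%, 2.79 to 4.64) and 8 one at room temperature (0.476%, 0.206 to 0.936). After cold, opposite-strand starts were reached at 18.6% from 0 to 100 bp apart, 17.1% from 101 to 250 bp, 19.1% from 251 to 500 bp and 16.1% from 501 to 1000 bp. At room temperature the shares in these classes were 1.59%, 4.39%, 3.47% and 2.54%, from 6, 10, 6 and 3 pairs. Between 1001 and 2000 bp, where the stretch within 1 kb of both starts is shorter by construction, the cold share was 5.50%, and no pair had a room temperature summit.

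**Figure D1:**
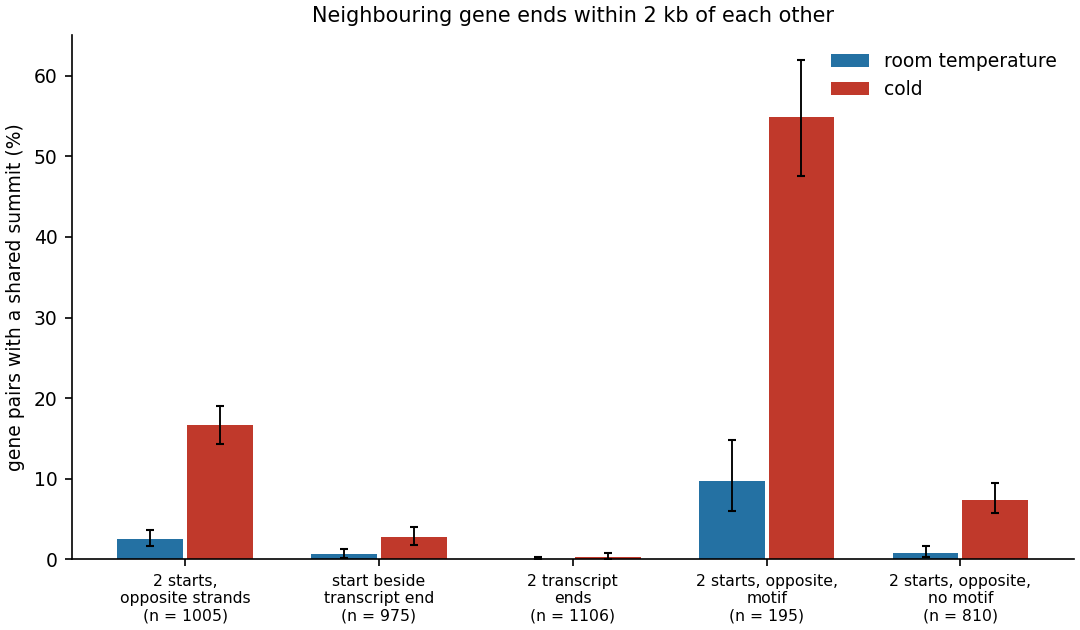
Percent of neighbouring protein-coding gene pairs (ends at most 2 kb apart) with a summit within 1 kb of both, by arrangement and, for opposite-strand starts, by presence of AANATGGC in a promoter window of either gene; bars are the share in the room temperature (blue) and cold (red) list, lines the exact 95% interval. After cold the share was 16.6% for opposite-strand starts and 54.9% for those with the motif.

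The presence of the motif divided the opposite-strand pairs further. A promoter window of at least 1 gene held AANATGGC in 195 of the 1005 pairs, and 107 of these had a cold summit (54.9%, 47.6 to 62.0), against 60 of the 810 pairs without it (7.41%, 5.70 to 9.43). At room temperature the counts were 19 of 195 (9.74%, 5.97 to 14.8) and 6 of 810 (0.741%, 0.272 to 1.61). Genes with no other gene end within 2 kb were ordered alike. A cold summit was listed at 206 of 741 such genes with the motif (27.8%, 24.6 to 31.2) and at 207 of 11044 without it (1.87%, 1.63 to 2.14). A pair offers windows of 2 genes to the motif search and a lone gene those of 1, and the summit is sought over different lengths, so the levels of pairs and lone genes are not on one scale and their difference was not tested.

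Seen from the summits, the motif was more frequent than in promoters at large. Of the promoter windows of genes at paired-gene summits, 201 of 560 after cold held AANATGGC (35.9%, 31.9 to 40) and 45 of 97 at room temperature (46.4%, 36.2 to 56.8), against 6.37% of all 21263 protein-coding windows. The 560 windows belong to 431 genes and the 97 to 72. Overlapping windows can hold the same match, so these intervals, which treat windows as independent, are too narrow. Genes of neighbouring pairs without any listed summit had it in 4.53% of windows. For genes at summits that reached 1 gene end only, the shares were 45.5% after cold and 58.9% at room temperature. CpG was also more frequent, with a median of 22 CpG per 300-base window for the genes at paired-gene cold summits, 13 over all windows and 18 for the neighbouring pairs without a summit. It was 19 for paired-gene summits at room temperature and 21 for summits at 1 gene end in either list. The part of CpG content in these shares was not tested. Of the 171 cold summits on opposite-strand starts 109 had a match in a window of the pair. It was in windows of both genes at 52, where the windows can overlap, and of 1 gene at 57. Windows of all annotated starts of a gene counted, so a match can lie far from the shared ends. The nearest match was 32871 bp from the summit at Acin1 with 1700123O20Rik, and 2703 bp from a summit at Mrps18b with Ppp1r10.

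Where a summit fell inside a promoter window, the nearest window held the motif at 20 of 20 paired-gene summits at room temperature and at 87 of 120 after cold (72.5%, 63.6 to 80.3). For summits at 1 gene end these counts were 27 of 29 and 158 of 205. The nearest match was a median of 34 bp from the cold summit (quartiles 16.5 and 59.5), and within 100 bp at 85 of the 87. For cold summits at 1 gene end the median was shorter, 17 bp (7 and 31), and the difference was not tested. At room temperature the median was 35 bp (16.5 and 62.8), and 16 of the 20 were within 100 bp. Only summits inside a window could be placed in this way, and the window bounds the distance. A match is a string of letters and not a measured binding site.

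**Figure D2:**
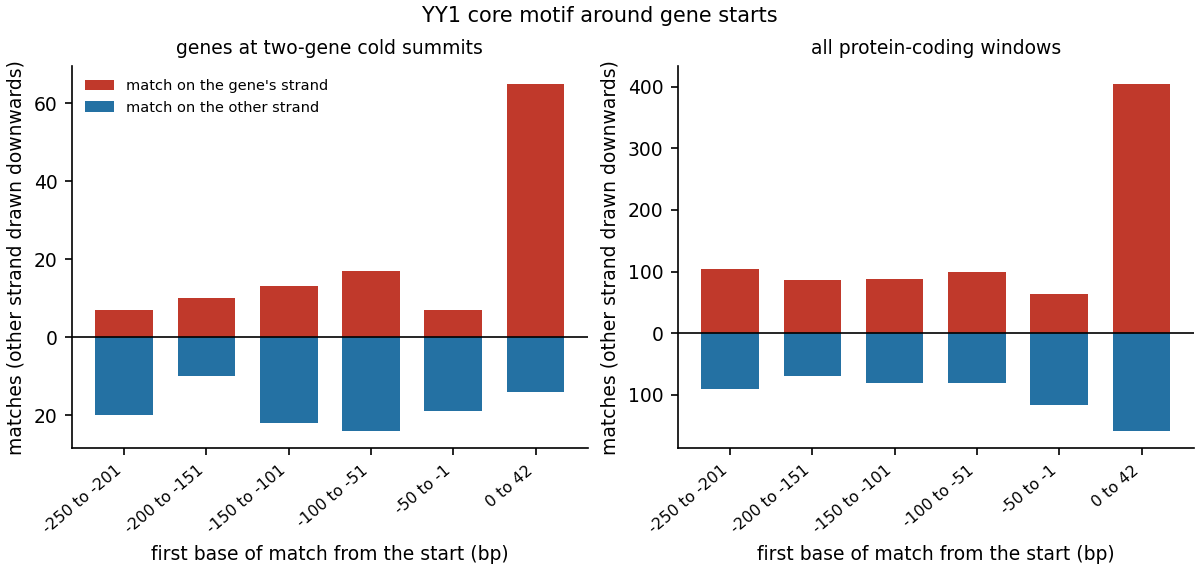
Number of AANATGGC matches by position of their first base relative to the annotated start (bp, negative before the start), on the strand of the gene (upwards) or the opposite strand (downwards), in windows of genes at paired-gene cold summits (left, 228 matches) and of all protein-coding genes (right, 1440 matches). In the bin from the start onwards 65 matches read along the gene and 14 against it on the left, and 405 and 158 on the right.

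Matches at or after the start mostly read along the gene. Of the 228 matches in windows of the cold genes, 79 began between the start and 42 bp after it, the last position a window of this length can show, and 65 of these were on the strand of the gene. Before the start, 54 of 149 were on that strand. At or after the start the same orientation holds for all protein-coding windows, where 405 of 563 matches read along the gene. Before the start it was shared only in part. From −250 to −201 bp, 7 matches of the cold genes read along the gene and 20 against it, and 104 and 91 over all windows. From −50 to −1 bp more read against the gene in both sets (7 and 19, 63 and 116). Matches in overlapping windows of a pair count for both genes. The 228 matches of the cold genes occupied 158 distinct positions.

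Where only 1 gene of an opposite-strand pair had such a match, most cold summits fell in that gene. At 48 of the 171 cold summits on opposite-strand starts, exactly 1 of the genes had a match on its own strand at or after an annotated start. That start can lie far from the shared ends, as for Acin1, where the match was 32871 bp from the summit. The summit lay inside that gene alone at 34 of the 48, inside the other gene alone at 4, and inside both or neither at 10. Such a match lies inside its gene by definition, and a summit outside a gap falls in the nearer gene by construction. No comparison with other summit positions was made, so no preference for that gene is read from these counts. Among the 34 were Sdf4 beside B3galt6, Cpsf2, which encodes a subunit of the mRNA cleavage complex, beside Ndufb1, Zfp784 beside Zfp580, and Ndufs6 beside Mrpl36. The Sdf4 match counts from another annotated start, 21 bp before it. In the Sdf4 window printed above both matches lie before the start. At room temperature the counts were 3, 2 and 2 of 7. Both genes had such a match at 4 cold summits.

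Most summits lay outside the stretch between the ends. The ends were a median of 172 bp apart after cold (quartiles 59 and 434) and 223 bp at room temperature. The cold summit was a median of 111 bp from the nearer end and 305 bp from the second. It lay between the ends at 68 of 261 cold summits (26.1%, 20.8 to 31.8) and at 16 of 42 at room temperature (38.1%, 23.6 to 54.4). Where it did, it stood at a median of 20.5% of the way from the nearer end after cold, a measure that cannot pass the midpoint. No comparison with random placement was made. Of the 109 cold summits on opposite-strand starts with a gap between the genes, 94 lay inside the nearer gene and 15 in the gap. A summit outside such a gap falls in the nearer gene by construction. At the median distance, the 1 kb rule also admits far more positions outside the ends than between them. These counts therefore do not show that summits avoid the stretch between the ends. Where the annotated genes overlapped, 29 of 62 lay in the overlap and 33 beyond it, in 1 gene only. The listed interval covered both ends at 76 of the 261 cold sites (29.1%), exactly 1 end at 107 and none at 78.

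**Figure D3:**
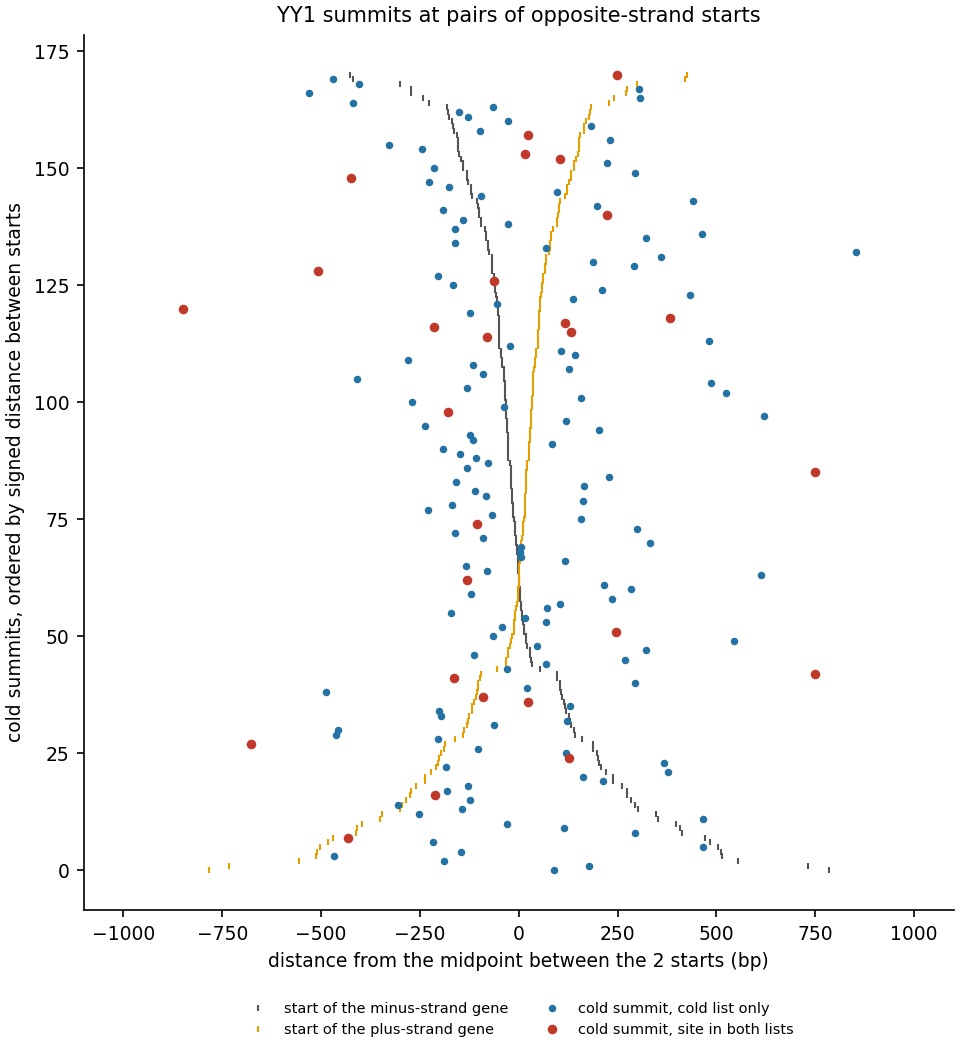
The 171 cold summits on opposite-strand starts, 1 per row and ordered by the signed distance between the starts, against the distance in bp from the midpoint between the starts; grey and orange ticks are the starts of the minus-strand and plus-strand gene, and points are summits (red where the site is in both lists, blue where it is in the cold list only). Most points lie outside the ticks in the upper part, where the genes are separated by a gap: 94 of 109 such summits were inside the nearer gene.

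Pairs at the extremes show the range. The genes Capza1, an actin-capping subunit gene, and St7l have ends 1 bp apart, and the summit lay 131 bp inside Capza1 after cold with 52 fragments (38.8 to 68.2), against 15 (8.40 to 24.7) at room temperature. A second cold summit, with 27 fragments (17.8 to 39.3), lay 611 bp inside St7l. Gak, a clathrin-uncoating kinase gene, and Tmem175 are 2 bp apart, with 14 fragments after cold, while Tti1 and Rprd1b share the position of their ends, with 30. At the other extreme, the genes Kdm5b, a histone demethylase gene, and Mgat4e overlap with starts 1568 bp apart, and the cold summit with 13 fragments was 694 bp from the nearer one. The starts of Srsf2, a splicing factor gene, and Mfsd11 are 1464 bp apart (24 fragments), and those of Nkiras2 and Dnajc7 1111 bp (34 fragments), again in overlapping genes. Of these only Capza1 with St7l was also listed at room temperature. The furthest second end inside the rule was 981 bp from a cold summit and the next outside it 1004 bp. Within 100 bp inside the limit lay 12 cold summits and within 100 bp outside it 7.

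All paired-gene summits at room temperature were found again after cold. Each of the 42 overlapped a cold interval, where 93.9% of all room temperature entries did, and in each case the cold summit nearest to it also reached 2 genes. In the other direction, 44 of the 261 cold summits were listed at room temperature (16.9%, 12.5 to 22.0), where 13% of all cold entries were. Summits at 1 gene end gave 95 of 756 (12.6%, 10.3 to 15.1) and those at no protein-coding end 25 of 242 (10.3%, 6.80 to 14.9), so the intervals overlap between the classes. In all, the summits named 252 different pairs of nearest genes (504 genes, each in 1 pair only), of which 41 were in both lists and 211 in the cold list only. Among cold summits on opposite-strand starts, 21 of 109 with the motif in a window (19.3%) and 6 of 62 without it (9.68%) were in both lists. The second share rests on only 6 summits, and the difference was not tested. The median pileup was 23 fragments with the motif (quartiles 18 and 32) and 19 without (14 and 26.2). A site missing from the shorter list has no value there and is not a measured 0.

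At sites in both lists the cold pileup was the higher one throughout. It exceeded the room temperature pileup at 42 of 42 paired-gene sites, by a median of 3.43-fold (quartiles 2.61 and 4.2). These 42 summits lie at 41 pairs. It was at least 2-fold higher at 38 of them (90.5%), against 92.3% of all 155 sites in both lists. Sites at 1 gene end had a median of 3.10-fold (2.53 and 3.91) and those at no end 3.20-fold (2.88 and 4.39), so the quartiles of all classes overlapped. The lowest recovered background per base of the shortest listed interval, used here to compare depth, was 1.05 times as high in the cold library. It does not measure how well each library was enriched. With 1 library per condition, a difference between libraries cannot be told apart from one between conditions. The summits moved little between libraries, by a median of 27.5 bp (11.2 and 42.5). The largest shift, 241 bp, was at Fiz1 with Zfp524, both zinc finger protein genes, where 2 room temperature summits with 19 and 13 fragments faced a single cold summit with 73.

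**Figure D4:**
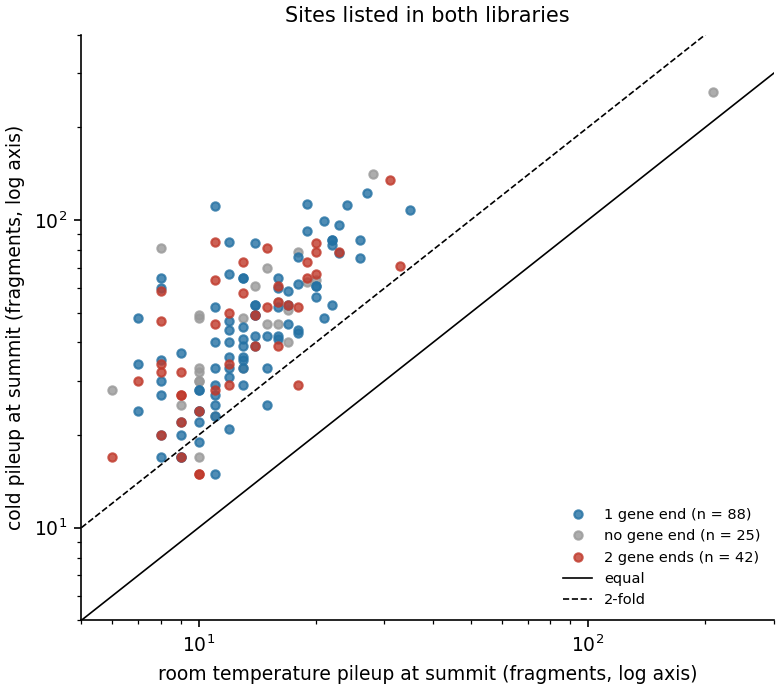
Fragments over the summit in the room temperature (x) and cold (y) library for the 155 room temperature entries that overlap a cold entry, both on log axes; points are sites by number of protein-coding genes in reach, the solid line marks equal values and the dashed line a 2-fold higher cold value. The 42 paired-gene sites (red) all lie above equality, 38 of them on or above the dashed line, among the other sites.

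The ratio differed between pairs by more than the median shows. The highest was at Usf1 with Arhgap30, with 11 fragments (5.49 to 19.7) against 85 after cold (67.9 to 105), a ratio of 7.73 (exact 95% interval 4.11 to 16.1). A second room temperature summit, with 12 fragments and only Usf1 in reach, faced the same cold summit from 267 bp away, a ratio of 7.08. Erh, a small conserved regulator of RNA processing, with the zinc transporter gene Slc39a9 had 8 (3.45 to 15.8) and 59 (44.9 to 76.1), a ratio of 7.38 (3.51 to 17.9). Wdr46 with the prefoldin subunit gene Pfdn6 had 8 and 47, a ratio of 5.88 (2.75 to 14.4), and AU040320 with Ncdn 11 and 64, a ratio of 5.82 (3.04 to 12.2). At the low end were Cspp1 with Cops5, a subunit gene of the COP9 signalosome, and Gadd45gip1 with Dand5. Both had 10 fragments in the room temperature library and 15 in the cold library, a ratio of 1.5 (0.630 to 3.73). At Cspp1 with Cops5 the deposited fold enrichment was lower after cold, 6.45 against 7.16 at room temperature, with backgrounds of 1.48 and 0.537 fragments. Ndufs6 with Mrpl36 had 18 and 29, a ratio of 1.61 (0.865 to 3.08), and Clk4 with BC049762 9 and 17, a ratio of 1.89 (0.796 to 4.81). The intervals of these 4 low pairs include 1, and that of Crat with Ptpa, from 33 to 71 fragments (ratio 2.15, 1.40 to 3.36), does not. The ratios were ranked after they were measured, and low counts widen both extremes.

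Among strong cold summits without a room temperature entry, Zfp672 with Sh3bp5l had 82 fragments (65.2 to 102), in the gap of 339 bp between them. Ccdc151, a gene of ciliary motors, with Prkcsh, which encodes the beta subunit of glucosidase II, had 71 (55.5 to 89.6) with starts 16 bp apart. Sdf4 with the galactosyltransferase gene B3galt6 had 71 (55.5 to 89.6) as well. Fbxo38 with Spink10 had 69 (53.7 to 87.3), and Zbtb17, which encodes the MYC partner MIZ-1, with Gm42337 had 53 (39.7 to 69.3). The lowest pileup of a paired-gene summit was 6 in each list, and a missing entry gives no room temperature value for these pairs.

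Genes of complex I and of the mitochondrial ribosome had the highest shares at paired-gene summits among the 16 gene lists after cold. Over all protein-coding genes, 2.33% were in reach of a paired-gene summit after cold and 0.375% at room temperature. Of 78 mitochondrial ribosomal protein genes 15 were after cold (19.2%, 11.2 to 29.7), and of 49 genes of complex I and its assembly 11 were (22.4%, 11.8 to 36.6). Of 67 genes of complexes II to V 7 were (10.4%, 4.30 to 20.3). At room temperature the counts were 2 (2.56%), 3 (6.12%) and 1 (1.49%) of the same lists, and the splicing factor list stood at 3.97%. These lists also hold many close neighbours: 64.1%, 69.4% and 52.2% of their genes have another gene end within 2 kb, against 32.2% of all genes. Counted over such genes only, the shares were 30.0%, 32.4% and 20.0%, against 7.22% of all genes with a close neighbour. Cold summits of any kind, at 1 gene end or more, were in reach of 28, 16 and 18 genes of these lists, and of 1234 of all 21887 genes. High shares in these lists were thus not particular to paired-gene summits. The lists were not matched on expression and no test was made.

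Several of these pairs, singled out after their values were seen, joined genes of mitochondrial function to each other. Ndufb5 with Mrpl47 and Ndufs6 with Mrpl36 join a complex I subunit to a mitochondrial ribosomal protein, and both were in both lists. Mrpl46 with Mrps11 joins proteins of both mitochondrial ribosomal subunits, with 18 fragments after cold (10.7 to 28.4). Mrps12 with Sars2, the mitochondrial seryl-tRNA synthetase gene, had 31 (21.1 to 44.0), and Sdhd, a complex II subunit gene, with the import factor gene Timm8b had 9 (4.12 to 17.1). Others had partners of different function. The complex I gene Ndufa13 with the kinase gene Tssk6 had 14 fragments at room temperature and 49 after cold, Ndufb1 with Cpsf2 46 after cold, Ndufa2 with the splicing factor gene Ik 41, and Atp5pb of the ATP synthase with Wdr77 23.

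Genes of RNA processing formed the next group. Of 126 splicing factor and RNA-binding protein genes 15 were at a paired-gene summit after cold (11.9%, 6.82 to 18.9) and 5 at room temperature (3.97%). Cold summits of any kind were in reach of 33 of the 126. The paired genes included a pair of related loci, singled out after their values were seen. Hnrnpa2b1 with Cbx3 and Hnrnpa1 with Cbx5 each join the gene of an hnRNP A/B protein to that of an HP1 chromatin protein on the opposite strand. The cold summit lay 796 bp inside Hnrnpa2b1 with 53 fragments (39.7 to 69.3), and 729 bp inside Hnrnpa1 with 32 (21.9 to 45.2). At room temperature the summits had 17 (9.90 to 27.2) and 9 (4.12 to 17.1) fragments and lay 761 and 742 bp inside the same genes. No promoter window of the first pair held AANATGGC, and the nearest match of the second was 636 bp from the cold summit. Srsf7 with Gemin6, a factor of snRNP assembly, had 12 and 29 fragments. Hnrnpd with 4930524J08Rik had 12 and 34.

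Other lists stood closer to the background of 2.33%. After cold the counts were 7 of 77 translation factor genes (9.09%), of which 1 was the methyltransferase gene Eef1akmt4 and 1 its read-through model, 3 of 35 aminoacyl-tRNA synthetase genes (8.57%), 5 of 64 genes of the RNA exosome and ribosome biogenesis (7.81%), 6 of 87 cytosolic ribosomal protein genes (6.90%) and 7 of 106 genes of RNA polymerases, mediator and general factors (6.60%). Proteasome subunits had 2 of 51 (3.92%), DNA replication and repair 4 of 107 (3.74%), vesicle traffic 7 of 217 (3.23%) and zinc finger genes 9 of 465 (1.94%). Counted over genes with a close neighbour, some lists changed side of the background of 7.22%: zinc finger genes stood at 8.26% and DNA replication and repair at 5.97%. Proteasome subunits then stood at 7.41% and vesicle traffic at 7.37%, near the background, and the splicing list at 25.4%. Cold summits of any kind were in reach of 11 of the 51 proteasome genes and 20 of the 87 cytosolic ribosomal protein genes. Ftsj3 with Psmc5, a proteasome ATPase gene, had 11 fragments at room temperature, and 28 at the stronger cold summit. None of the 16 thermogenic genes and none of the 22 polyamine and hypusine genes was at a paired-gene summit in either library. Their intervals after cold reached 20.6% and 15.4%, so a count of 0 does not set them below the background. Of 26 genes of adipocyte identity 1 was, the seipin gene Bscl2, whose start lies beside the transcript end of Gng3, with 16 fragments (9.15 to 26.0) and 39 after cold (27.7 to 53.3).

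Of 10 textbook pairs with close or shared promoters, 3 had a cold summit and none one at room temperature, where 16.6% and 2.49% of all opposite-strand pairs did. Nothing is read from these 10 pairs as a group. Surf1 with Surf2 had 26 fragments (17.0 to 38.1), Mrps12 with Sars2 the 31 given above, and the repair gene Brca1 with the autophagy receptor gene Nbr1 16 (9.15 to 26.0). The Surf summit lay inside Surf1 alone, 40 bp from the match in the Surf2 window printed above. The summit of Brca1 with Nbr1 was 778 bp inside Nbr1, and no window of this pair held the motif. Pairs with no summit in reach of both genes included the chaperonin genes Hspd1 with Hspe1, 95 bp apart, Atm with Npat, and the purine synthesis genes Paics with Ppat.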

How the data were processed

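YY1 binding was profiled in 1 library per condition, with 1 deposited peak list each, so peaks were called per sample. The submitters' processing notes name mm10, BWA, SAMtools, MACS2, deepTools and DESeq2. Neither versions, settings nor a control library are named there. Each deposited line holds a fold enrichment (a linear ratio over local background), the −log10 of a p-value and of a q-value, a summit offset, and a score derived by the authors from the p-value.

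The fragments over each summit were estimated as the whole number that best satisfies the deposited ratio and −log10 p with a MACS2 pseudocount of 1. All 1424 entries had one within 0.0002, and 1 entry, not a paired-gene summit, had a second. On simulated lists the estimate was exact for 165 of 165 and 1257 of 1259 entries. Library totals are unknown. Genes came from the RefSeq table of GRCm38.p6. Strands and motif searches (AANATGGC, both strands) used its promoter table, which covers 17492 of the 21887 nuclear protein-coding genes and 428 of the 504 paired genes. Peaks counted as in both lists where intervals overlapped by at least 1 bp, and a ratio used the nearest overlapping summit. Intervals are exact 95% Clopper-Pearson or Poisson. They cover counting error only, and PCR copies may be among the fragments.

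With 1 library per condition no test between conditions was made. Pairs were named by rank: the 10 highest −log10 q per list, the 5 most extreme distances and ratios on each side, the 5 strongest cold-only summits, and up to 4 per gene list. Other named pairs were chosen after their values were seen. Members and lists were chosen with earlier results of these data known. Python 3.11.15, pandas 2.3.3 and scipy 1.17.1 were used. Alternatives were other windows, starts only, stricter entries, other gene sets, scalings and the shorter motif.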

Additional observations from a re-analysis of the deposited data

How the results depend on the processing

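Among 38 recomputed values, 8 left their interval, their quartiles or a 1.5-fold range around the count, and 30 did not. With a window of 500 bp the room temperature count fell to 27 summits, and the share of opposite-strand starts was 95% in the room temperature library and 91.6% in the cold one. With transcription starts only, which leaves out genes without a strand, the counts were 23 and 165. Against only the 165 strongest cold entries, 55.8% of the paired-gene cold summits were listed at room temperature, where 55.2% of all 165 were. With the shorter motif GCCAT, which occurs in 38.8% of all windows, 62.9% (room temperature) and 62.5% (cold) of member windows held a match. The fold enrichments gave a median ratio of 2.73 in place of 3.43, and scaling by the depth estimated from the lowest background 3.27. No paired analysis was possible because there was 1 library per condition, and none could be left out.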

Other observations

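A few summits reached 3 genes, all in the cold list: Alg3 with Eef1akmt4 and its read-through model Eef1akmt4-ece2 (25 fragments), Smim27 with Topors and the complex I gene Ndufb6 (21), Alkbh1 with Slirp and Nrp (20), Cmc4 with Mtcp1 and Brcc3 (11), and the histone genes H2ac21, H2ac20 and H2bc21 (6).

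At 9 pairs the cold list held more than 1 summit. At Safb with Safb2, related genes of scaffold attachment factors that start on opposite strands 307 bp apart, the cold summits lay on either side of the gap, 77 bp inside Safb with 22 fragments (13.8 to 33.3) and 174 bp inside Safb2 with 20 (12.2 to 30.9). At Mrps18b with Ppp1r10, 72 bp apart, the stronger summit had 24 fragments.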
